A study of Hydra vulgaris with 15 samples.

Results

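The transcripts described here were at least 8 times as abundant in the body column as in the head of control polyps of Hydra vulgaris, and were not raised in heads after RNA interference (RNAi) against Zic4. There were 41 of them among 79784 contigs of a transcriptome assembly. They were chosen on measured values, given as CPM, the standard count unit scaled to the library total. Each had at least 5 CPM in each of the 3 control body columns, and its mean there was at least 8 times the mean of the 4 control heads. Its mean in the 4 RNAi heads exceeded that of the control heads by at most 25%. The first 2 limits alone were met by 121 transcripts, so the 41 made up 33.9% of these, and the other 80 lay above the RNAi head limit. The levels in control body columns, control heads and RNAi heads were thus used in the choice and are given as a description. The 4 RNAi body columns were not used in it.

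Hydra is a small freshwater cnidarian with a tube-shaped body column, a head with mouth and tentacles at the upper end, and a foot at the lower end. Its body column holds dividing epithelial cells of both tissue layers, which are displaced towards the tentacles and the foot as the animal grows and change their identity when they arrive there. It also holds interstitial stem cells, developing stinging cells and most of the gland cells that line the gut, whereas tentacles consist largely of non-dividing epithelial cells loaded with mature stinging cells. Zic4 encodes a zinc-finger transcription factor, and RNAi uses double-stranded RNA of the same sequence to deplete its transcript. The study asked how Zic4 acts in these separate tissues.

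All polyps were of the line Hydra vulgaris Basel1, starved for 4 days before the experiments began. Intact animals were electroporated 4 times, every other day, and RNA was taken 1 day after the last electroporation from 20 polyps per condition. The groups were control heads (n = 4), control body columns (n = 3, numbered 2, 3 and 4, without a replicate 1), Zic4 RNAi heads (n = 4) and Zic4 RNAi body columns (n = 4). Controls carry the genotype label wild-type, and the labels do not say what controls received by electroporation. Another label field reads "entire animal" for every library, and the tissue was taken from the field that names head or body column and from the titles. Nothing in the labels says that replicates came from separate cultures, so p-values measure only the spread between these libraries, which may be technical.

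The libraries had between 16020768 and 22554104 counts. None of the 41 contig IDs matched a table of 28925 RefSeq genes, so transcripts are given by ID, without gene name, function or position. The tissue labels could not be checked against marker genes and the knockdown could not be checked against the level of Zic4 for the same reason. In bulk tissue, fewer cells of a type and less RNA per cell cannot be told apart. RNAi head replicate 2 was the lowest head for each of the abundant transcripts of the list, as given below. Results in heads are given with and without it, and the rule finds 42 transcripts when it is left out.

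The 41 transcripts ranged from 5.71 to 1509 CPM in control body columns, with a median of 16.02 CPM. A few of them held most of the signal. The 3 most abundant made up 61.6% of the summed level in control body columns, and the 8 with at least 100 CPM made up 87.4%. This limit of 100 CPM was chosen after the values were seen. The mean in control body columns was between 8.24 and 41.5 times the mean in control heads, with a median of 12.2, for the 38 transcripts that had any count in heads. The other 3 were listed at 0 in all 8 heads.

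**Figure D1:**
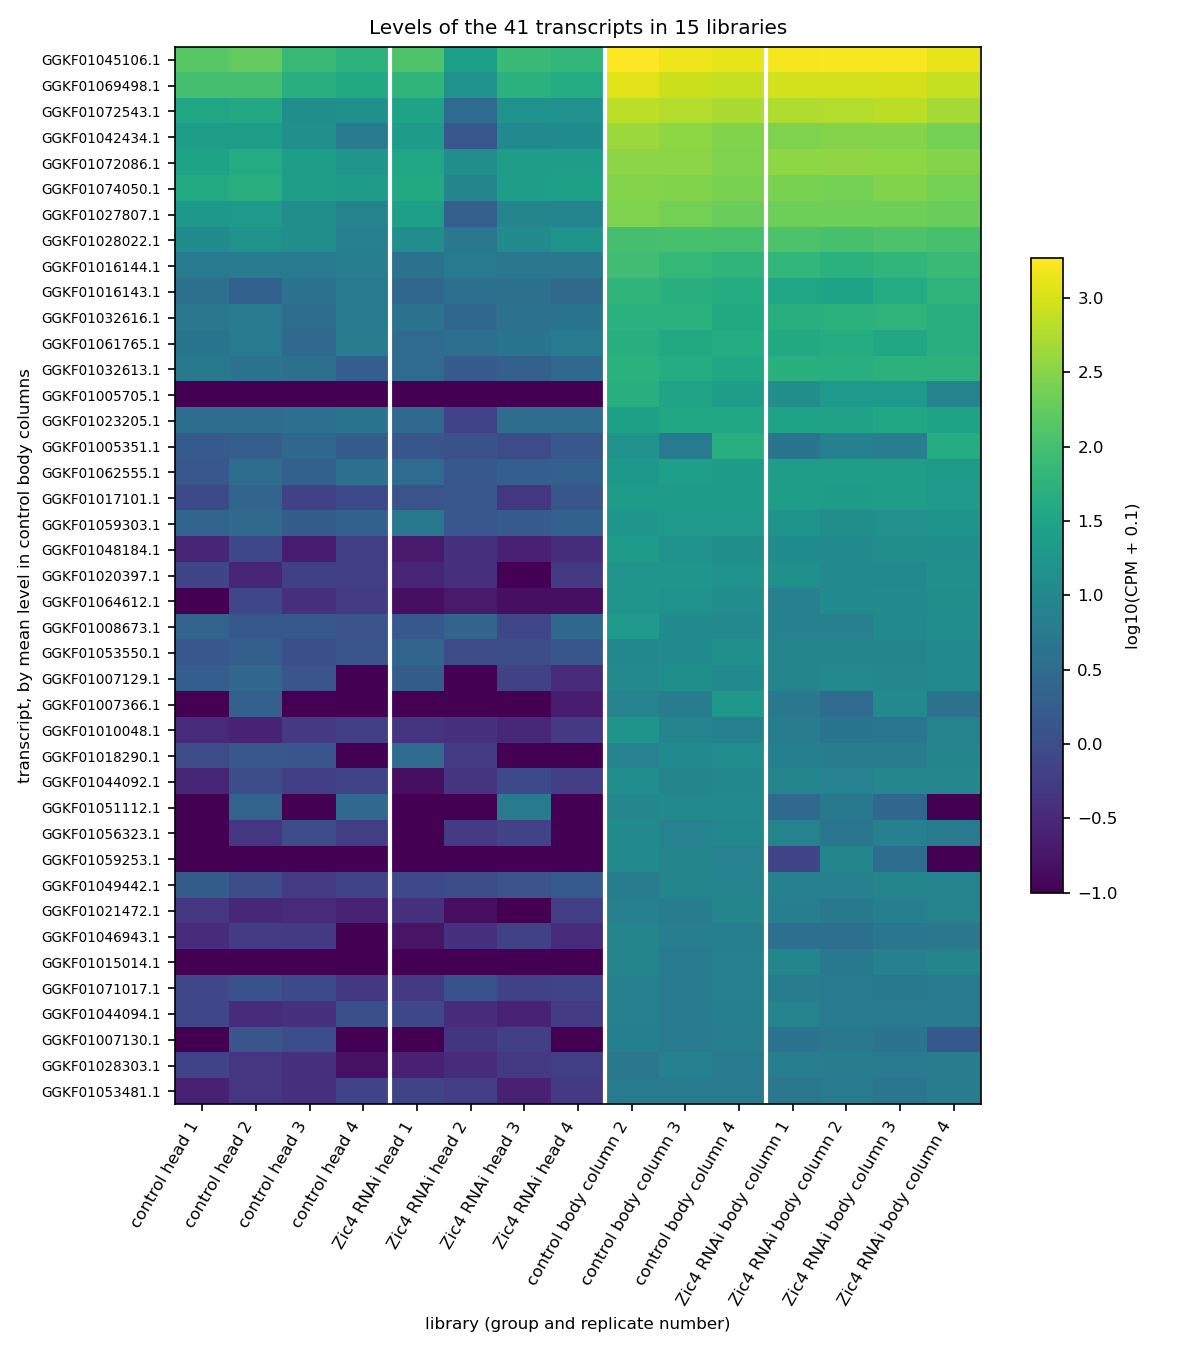
Each row is 1 of the 41 transcripts, ordered by its mean level in control body columns, and each column is 1 of the 15 libraries, with white lines between the groups. Colour gives log10(CPM + 0.1); all 7 body columns are brighter than the 8 heads for most rows, and 3 rows are at 0 in every head.

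Among the abundant transcripts, GGKF01045106.1 had the highest level. In control body columns it stood at 1838, 1435 and 1253 CPM in replicates 2, 3 and 4, and in RNAi body columns at 1597, 1639, 1657 and 1302 CPM in replicates 1 to 4. Its level in heads was 145, 171, 76.6 and 57.8 CPM in control replicates 1 to 4 and 122, 24.97, 77.1 and 67.1 CPM after RNAi. The body columns of the treatments overlapped, and so did the heads, where RNAi replicate 2 was the lowest of the 8. GGKF01069498.1, the second in abundance, showed the same ranking of tissues. It was at 1163, 880 and 777 CPM in control body columns and at 923, 946, 964 and 762 CPM in RNAi body columns. Control heads had 102, 102, 49.4 and 38.9 CPM of it and RNAi heads 60.6, 14.6, 52.5 and 42.5 CPM, so that the ratio of the means, 0.582, was among the 2 lowest of the transcripts with at least 1 CPM in control heads.

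GGKF01072543.1 had 694, 598 and 524 CPM in control body columns against 32.2, 37.5, 13.1 and 13.9 CPM in control heads. After RNAi its body column levels were 570, 598, 674 and 493 CPM, and its head levels were 29.6, 3.04, 15.1 and 14.4 CPM. The body column groups overlapped. GGKF01042434.1 was at 412, 343 and 286 CPM in control body columns and at 275, 301, 302 and 237 CPM in RNAi body columns. Its heads had 24.4, 23.4, 13.8 and 5.45 CPM in controls and 22.7, 1.34, 10.3 and 11.6 CPM after RNAi. For both transcripts RNAi head replicate 2 was again the lowest head.

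The 8 transcripts with at least 100 CPM varied widely between single heads. Each of the 8 had its lowest head level in RNAi head replicate 2, at 0.0801 to 0.448 of the control head mean with a median of 0.211. The highest head was control replicate 2 for 5 of them. Across the 8 transcripts, the median level relative to the control head mean was 1.28, 1.43, 0.757 and 0.559 in control heads 1 to 4 and 1.16, 0.211, 0.702 and 0.646 in RNAi heads 1 to 4. The highest head level exceeded the lowest by 3.18 to 18.1 times, with a median of 6.91. In the 7 body columns the same transcripts spanned only 1.16 to 1.74 times between the lowest and the highest library. The median ratio of RNAi to control heads was 0.71 over the 8, and 0.891 without RNAi head replicate 2, where 1 of the 8 was above 1.

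Of the other 33 transcripts, 30 had a count in heads, and RNAi head replicate 2 alone was the lowest head for 5 of these and shared the lowest value, 0, with other heads for 3. The median of their levels in that library was 0.623 of the control head mean, next to 0.725, 0.696 and 0.831 in RNAi heads 1, 3 and 4. Their median ratio of RNAi to control heads was 0.81, and 0.832 without RNAi head replicate 2. Control head means of these 30 transcripts ranged from 0.249 to 5.95 CPM, so single values of the lower ones rest on few counts. A level of 3 counts corresponds to between 0.133 and 0.187 CPM, depending on the library, and this floor covers counting error only.

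**Figure D2:**
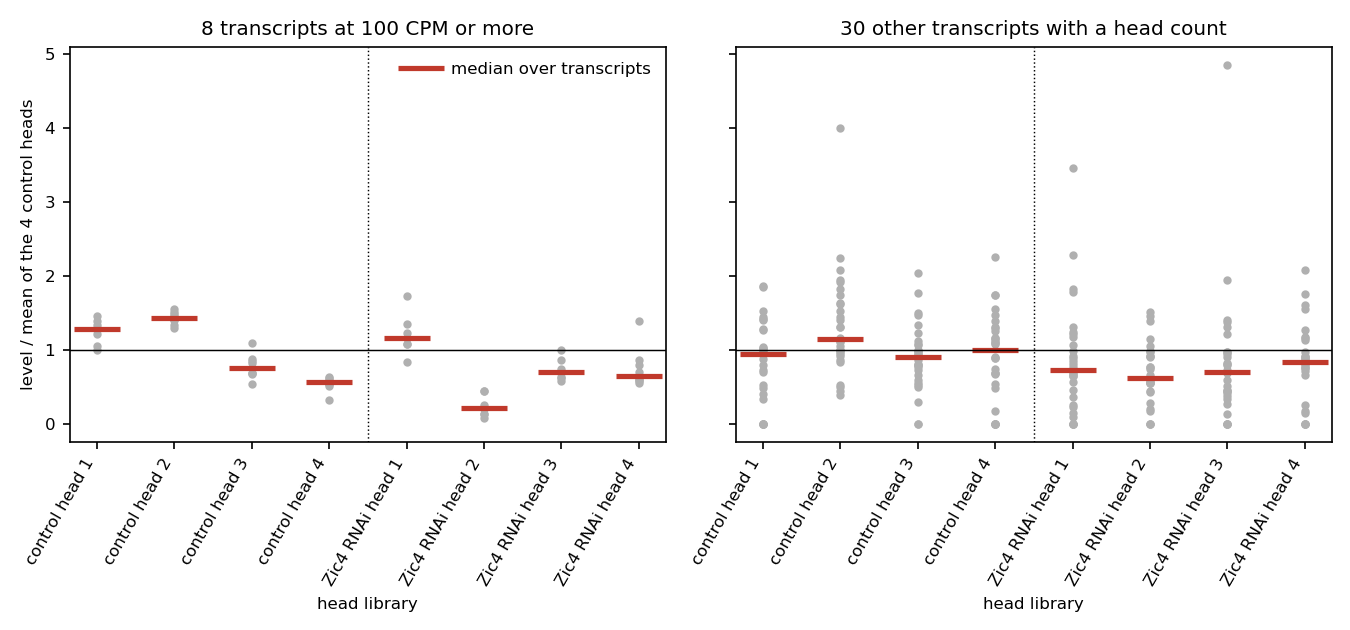
Levels in each of the 8 heads divided by the mean of the 4 control heads, for the 8 transcripts with at least 100 CPM in control body columns (left) and the 30 others with a count in heads (right). Grey points are transcripts and red bars are their medians; on the left RNAi head 2 has the lowest median, 0.211, against 0.623 on the right.

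Over all 38 transcripts with a head count, the ratio of RNAi to control heads ranged from 0.0635 to 1.21, with quartiles at 0.629 and 0.97. The lowest value, that of GGKF01007366.1, rests on control head replicate 2, the only control head with a count of it, at 1.93 CPM. The ratio was under 0.5 for 5, under 0.8 for 20 and above 1 for 9 transcripts. Without RNAi head replicate 2 it ranged from 0.0847 to 1.62, with quartiles at 0.715 and 1.03, and was under 0.5 for 6, under 0.8 for 16 and above 1 for 11 transcripts. The median ratio, 0.797 with all 8 heads, lay between 0.724 and 0.861 with 1 head left out, control or RNAi. The upper end with all 8 heads is set by the choice of the transcripts. Leaving out transcripts above the limit also lowers the median and quartiles and shifts the counts. No fall in heads is read from them. RNAi and control heads did not overlap for 3 of the 41, all lower after RNAi, against 12.2% of all 31142 transcripts tested, or 10% counting only lower ones. Without RNAi head replicate 2 the heads of the same 3 did not overlap, against 15.1% of all transcripts tested. Nothing is read from this count, since the choice used the same heads. The 3 are named because of it, after their values were seen. GGKF01016144.1 was at 5.52, 5.92, 5.81 and 6.52 CPM in control heads and at 3.82, 5.42, 4.82 and 4.92 CPM in RNAi heads. GGKF01023205.1 was at 3.42, 3.43, 3.55 and 4.22 CPM in control heads and at 2.79, 0.613, 3.31 and 3.21 CPM in RNAi heads. GGKF01005351.1 had 1.5, 1.88, 2.55 and 1.68 CPM in control heads and 1.3, 1.05, 0.828 and 1.36 CPM in RNAi heads. The gaps between the groups were small next to the spread within them.

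GGKF01007129.1 had the lowest ratio of RNAi to control heads, 0.462, among the transcripts with at least 1 CPM in control heads. Control heads had 1.75, 2.48, 1.22 and 0 CPM and RNAi heads 1.68, 0, 0.594 and 0.237 CPM, so the groups overlapped. Its body columns held 9.9, 13.2 and 10.7 CPM in controls and 8.72, 10.1, 9.2 and 10.9 CPM after RNAi, and these overlapped as well. The contigs numbered next to it, named after their values were seen, were also lower in heads than in body columns of controls. GGKF01007128.1 averaged 2.85 ± 1.86 CPM in control heads and 1.262 ± 0.601 CPM in RNAi heads (SD, n = 4 each), against 21.4 ± 2.73 CPM in body columns of controls (SD, n = 3). GGKF01007130.1, another of the 41, averaged 0.553 ± 0.648 CPM in control heads (SD, n = 4) against 6.37 ± 0.474 CPM in body columns of controls (SD, n = 3). In RNAi body columns GGKF01007128.1 averaged 23.4 ± 9.41 CPM (SD, n = 4). Those of GGKF01007130.1 differed from GGKF01007129.1: they had 4.07, 5.06, 4.25 and 1.37 CPM, all under its controls.

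The highest ratio of control body column to control head among transcripts with a head count belonged to GGKF01048184.1, at 41.5, and the next to GGKF01064612.1, at 40.2. GGKF01048184.1 was at 20.8, 14.9 and 13.2 CPM in control body columns and at 11.5, 11.1, 12.7 and 12.1 CPM in RNAi body columns. Its heads had 0.19, 0.753, 0.115 and 0.511 CPM in controls and 0.1, 0.298, 0.146 and 0.26 CPM after RNAi. The 4 RNAi body columns lay just under the 3 controls and the heads overlapped. GGKF01064612.1 was at 16.4, 14.9 and 12.2 CPM in control body columns and at 7.18, 10.6, 11.5 and 12.7 CPM in RNAi body columns, which overlapped. Control heads had 0, 0.699, 0.288 and 0.454 CPM of it, and the 4 RNAi heads had 0.0487 to 0.0995 CPM, below the level of 3 counts.

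Of the 3 transcripts listed at 0 in all 8 heads, GGKF01005705.1 was the most abundant. It had 47.2, 30.4 and 23.9 CPM in control body columns and 12.6, 20.2, 19.9 and 8.1 CPM in RNAi body columns, so that all 4 RNAi libraries lay under the 3 controls. Its mean in control body columns was at least 209-fold higher than a floor of 3 counts in each control head. GGKF01059253.1 had 11.2, 8.68 and 7.7 CPM in control body columns, and their mean was at least 56.7-fold higher than the same floor. Its RNAi body columns were uneven, with 0.666, 8.82, 3.11 and 0 CPM, and overlapped the controls. GGKF01015014.1 was at 8.46, 5.7 and 7.52 CPM in control and 8.94, 5.29, 7.1 and 9.07 CPM in RNAi body columns. The mean of its control body columns was at least 44.6-fold higher than the floor in control heads. It was described, as the remaining transcript at 0, after its values were seen.

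An exact 0 can be a failed estimate when reads are divided between similar contigs, so levels of contigs with neighbouring numbers are set beside these. Whether neighbouring numbers mean a shared gene is not given in the sources used here. GGKF01005704.1, numbered next to GGKF01005705.1, had 52.5 ± 5.36 CPM in control heads (SD, n = 4) and 29.7 ± 4.33 CPM in control body columns (SD, n = 3). GGKF01005703.1, one of the 80 transcripts above the RNAi head limit, averaged 29.97 ± 2.03 CPM in control heads and 48.8 ± 7.75 CPM in RNAi heads (SD, n = 4 each), against 361 ± 96.5 CPM in body columns of controls (SD, n = 3). GGKF01015013.1, numbered next to GGKF01015014.1, had 59.6 ± 4.05 CPM in control heads (SD, n = 4) and 40.6 ± 0.697 CPM in control body columns (SD, n = 3). GGKF01059254.1, next to GGKF01059253.1, had 15.3 ± 3.83 CPM in control heads (SD, n = 4) against 0.350 ± 0.272 CPM in control body columns (SD, n = 3). Neighbours differed in direction: of the 5 contigs within 4 numbers of GGKF01059253.1 with a mean of at least 1 CPM over all libraries, 2 were higher in control heads and 3 in control body columns. All 3 such contigs near GGKF01015014.1 were higher in control heads, GGKF01015012.1 among them with 61.3 ± 22.3 CPM in control heads (SD, n = 4) and 2.84 ± 0.697 CPM in control body columns (SD, n = 3). Near GGKF01005705.1, 1 was higher in control heads and 2 in control body columns. These contigs were chosen after their values were seen. Heads thus held reads of a contig next to each of the 3 in number. This is not particular to the 3, since 29 of the 41 had a contig within 4 numbers at 10 CPM or more in control heads. Whether the values of 0 are failed estimates was not tested.

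Several of the 41 lay close together in number. For 15 of them, or 36.6%, another of the 121 body column transcripts lay within 4 numbers, against 1.22% of all tested transcripts. Among these 15, 8 had another of the 41 as neighbour and 7 had one of the 80 above the RNAi head limit. GGKF01046943.1, for example, averaged 0.292 ± 0.217 CPM in control heads and 0.295 ± 0.207 CPM in RNAi heads (SD, n = 4 each). Its neighbour GGKF01046942.1 had 1.81 ± 0.785 CPM in control heads and 3.27 ± 0.883 CPM in RNAi heads (SD, n = 4 each). In the same way GGKF01061765.1 averaged 4.67 ± 1.42 CPM in control heads and 4.13 ± 1.11 CPM in RNAi heads (SD, n = 4 each), while GGKF01061764.1 had 2.70 ± 2.41 and 4.196 ± 1.02 CPM (SD, n = 4 each). These examples were chosen after their values were seen. Transcripts of neighbouring number thus fell on both sides of the RNAi head limit, and how many separate genes the 41 represent is not known from the files.

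The 80 transcripts above the limit are set beside the 41 in single heads as a description. The lists were separated by their means in RNAi heads, so a difference between them there follows from the choice. The summed level of the 80 was between 206 and 409 CPM in the 4 control heads. In the 4 RNAi heads it was between 984 and 1310 CPM. The RNAi head mean of each was used in choosing them, so nothing is read from this difference. The summed level of the 41 was 450, 516, 268 and 218 CPM in control heads 1 to 4 and 387, 104, 264 and 252 CPM in RNAi heads 1 to 4. RNAi head replicate 2, with the lowest sum of the 41, had a sum of 1121 CPM for the 80 others, the second highest of the 4 RNAi heads. The mean sum of the 41 in RNAi heads was 0.693 of that in control heads, and 0.8292 without RNAi head replicate 2. That was the highest ratio with 1 head left out, and the lowest was 0.569, without RNAi head replicate 1. Without control head replicate 2 the ratio was 0.807. Both groups of heads overlapped in the sum of the 41.

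**Figure D3:**
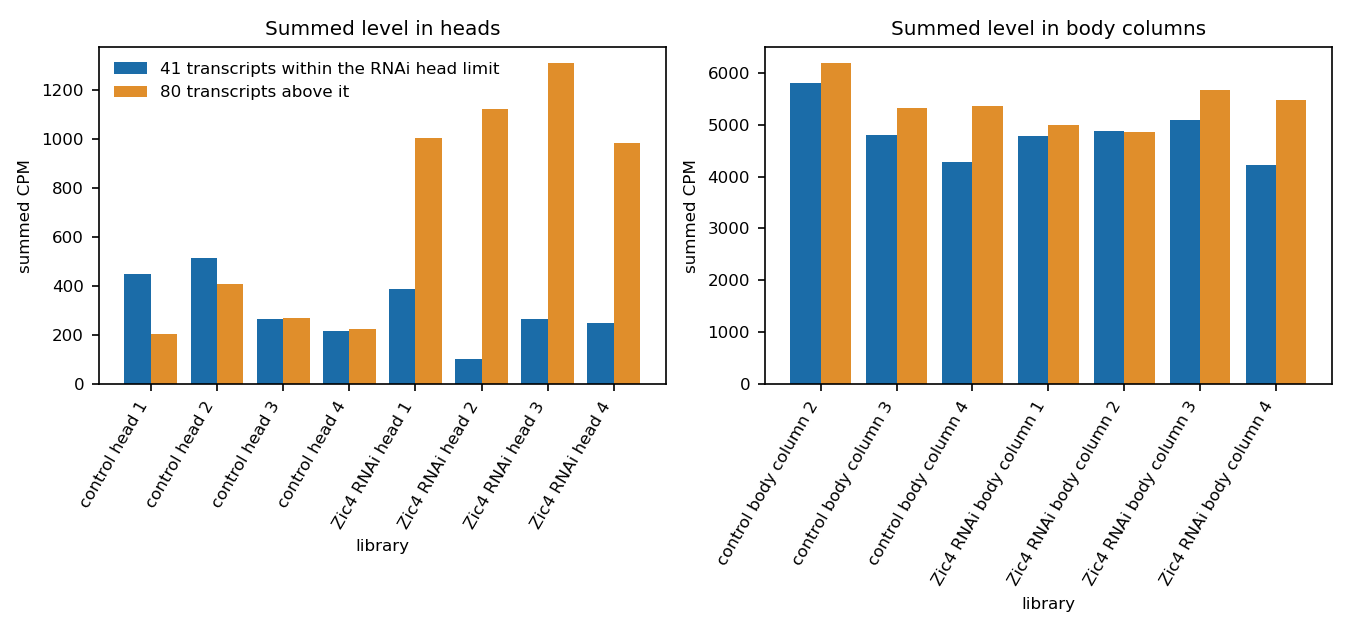
Summed CPM per library of the 41 transcripts within the RNAi head limit (blue) and of the 80 body column transcripts above it (orange), in the 8 heads (left) and the 7 body columns (right); the vertical scales of the panels differ. The blue bars of RNAi heads, 104 to 387 CPM, overlap those of control heads, 218 to 516 CPM, and the orange bars of RNAi heads all exceed those of control heads; the orange transcripts were chosen for a mean above the limit in RNAi heads.

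In the RNAi body columns, which the choice did not use, most of the 41 were above their levels in heads. In 39 of the 41, all 4 RNAi body columns were above all 8 heads, which was so for 9.19% of all tested transcripts. The 2 exceptions were GGKF01051112.1 and GGKF01059253.1. The mean of RNAi body columns was at least 8 times the mean of control heads for 33 of the 41, against 1.97% of all tested transcripts; of these 33, 3 were at 0 in all heads. At least 5 CPM in each of the 4 RNAi body columns was reached by 32, and both limits were met by 26. The ratio of RNAi body columns to RNAi heads had a median of 14.8 over the 38 transcripts with a head count and was 8 or more for 33 of them. The counts for 5 CPM, for both limits and for RNAi heads have no share of all tested transcripts beside them. Nothing is read from these counts. The heads in all these comparisons were used in the choice, which kept both head groups low. High counts next to the shares of all tested transcripts thus follow in part from the choice.

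Between RNAi and control body columns, none of the 41 was differentially abundant (edgeR quasi-likelihood test, Benjamini-Hochberg adjusted p under 0.05 over all tested transcripts). All 41 had passed the filter on low counts, through the body columns in which they were chosen to be high. Of the 31142 transcripts tested, 640 or 2.06% were called, 471 higher and 169 lower (0.543%) after RNAi. Leaving out control replicate 2 or 3 of the body columns lowered that total to 255 and 103, and leaving out RNAi replicate 1, 2 or 3 lowered it to 234, 293 and 298. A count of 0 of 41 is near the background, and is not a result about the list. The DESeq2 Wald test also called none of the 41, and 1837 or 6.32% of the 29067 transcripts to which it gave an adjusted p. At an unadjusted p under 0.05 the edgeR test had 2 of the 41, both lower, against 16.8% of all transcripts. With the library total alone as scaling, 143 of all transcripts were called, 64 higher and 79 lower, and none of them was among the 41.

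Fitted changes in body columns were mostly below 0. They were negative for 30 of the 41, or 73.2%, against 48.4% of all transcripts, with a median log2 fold change of −0.15 against 0.011. The 3 control body columns helped to choose the transcripts, which favours those that were high in them by chance, so a shift below 0 can arise without an RNAi effect. The 80 other body column transcripts, chosen on the same control libraries, had a median of −0.23, with 62 below 0 and none called by edgeR. The ratio of RNAi to control body columns on the CPM scale ranged from 0.257 to 1.20 over the 41, with a median of 0.863. It was 0.804 to 1.07 for the 8 transcripts with at least 100 CPM.

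**Figure D4:**
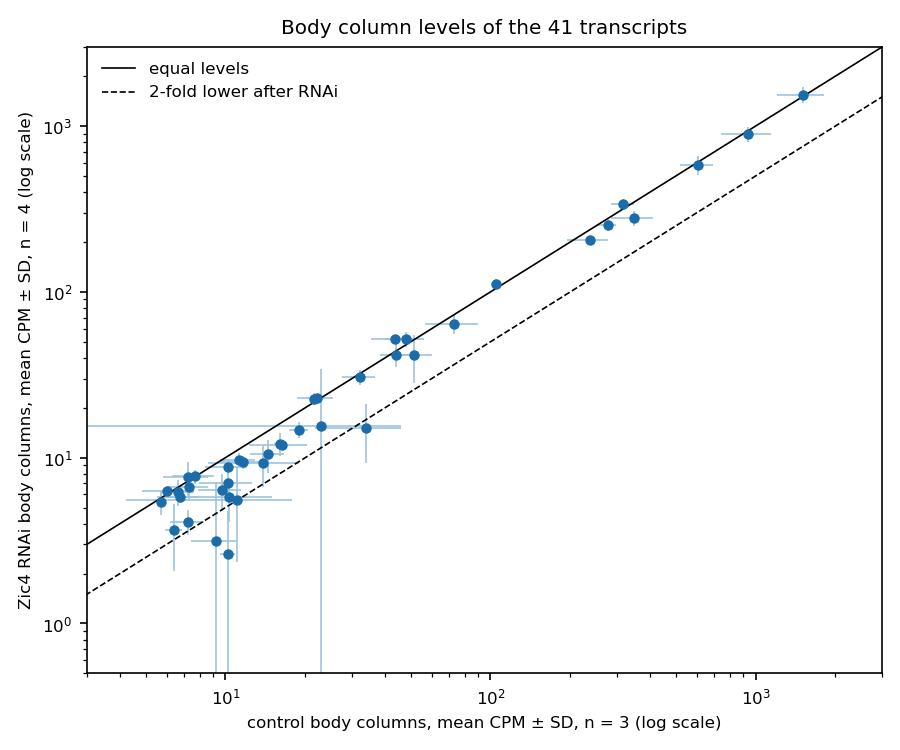
Mean CPM in Zic4 RNAi body columns (n = 4) against control body columns (n = 3) for the 41 transcripts, both on log scales, with SD as error bars; bars that would reach 0 run off the plot. The solid line marks equal levels and the dashed line a 2-fold lower level after RNAi; the 8 most abundant lie near the solid line, with ratios from 0.804 to 1.07, and the lowest ratio is 0.257.

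For the abundant transcripts the intervals were wide. The log2 fold change of GGKF01045106.1 in body columns was 0.096 with a 95% interval from −0.79 to 0.98 (edgeR adjusted p = 0.956). GGKF01069498.1 gave −0.0060 with an interval from −0.83 to 0.82 (edgeR adjusted p = 1), and GGKF01042434.1 gave −0.26 with an interval from −1.37 to 0.85 (edgeR adjusted p = 0.886). The spread in these intervals is shared over all 15 libraries, heads included. These transcripts varied more between heads than between body columns, as given above. With body columns alone, the edgeR adjusted p was 0.881 for GGKF01045106.1, 0.953 for GGKF01069498.1 and 0.432 for GGKF01042434.1. In the model of all 15 libraries, GGKF01074050.1 gave −0.070 with an interval from −0.81 to 0.67. The interval lay within 1 of 0 for 20 of the 41, so a 2-fold change in either direction is outside the interval for those, and a 2-fold change in at least 1 direction is within it for the others.

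The lowest edgeR p of the 41 was that of GGKF01005705.1, at −1.09 on the log2 scale with a standard error (SE) of 0.368, lower in 4 of 4 RNAi body columns (edgeR adjusted p = 0.191). It did not pass the threshold, and over the alternatives run its adjusted p lay between 0.0865 and 0.418. GGKF01010048.1 had the other unadjusted p under 0.05, with 15.7, 7.99 and 7.26 CPM in control and 6.16, 4.38, 4.57 and 7.99 CPM in RNAi body columns. The fitted value was −0.79 on the log2 scale, with an SE of 0.349 (edgeR adjusted p = 0.274). It was named for its p, after its values were seen. Body columns of the treatments did not overlap for 7 of the 41, all lower after RNAi, against 15% of all tested transcripts, or 9.12% counting only those lower after RNAi. The control body columns were used in the choice, which favours lower values after RNAi, so nothing is read from this count. The 7 were GGKF01005705.1, GGKF01059303.1, GGKF01048184.1, GGKF01020397.1, GGKF01051112.1, GGKF01046943.1 and GGKF01007130.1, and none was called. The list was drawn up after the values were seen.

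A few transcripts were uneven within the body column groups. GGKF01005351.1 was at 14.6, 5.4 and 48.8 CPM in control replicates 2, 3 and 4 and at 4.38, 7.43, 6.46 and 43.5 CPM in RNAi replicates 1 to 4. Replicate 4 was thus the highest in both treatments, while its heads stayed between 0.828 and 2.55 CPM. GGKF01007366.1 was at 7.99, 6.26 and 18.8 CPM in control and at 5.01, 3.04, 10.3 and 3.97 CPM in RNAi body columns, with no shared replicate number for the highest library. Both were named after their values were seen.

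Transcripts next to the limits show how sharp the choice was. For the minimum of 5 CPM, GGKF01028303.1 was just inside, with 5.05 CPM in its lowest control body column, and GGKF01023207.1 just outside, with 4.61 CPM. After RNAi the body column mean of GGKF01028303.1 was 6.29 ± 0.382 CPM (SD, n = 4), next to 6.04 ± 1.18 CPM in controls (SD, n = 3). For the ratio of body column to head, GGKF01074050.1 was just inside at 8.24 and GGKF01070746.1 just outside at 7.75. For the ratio of RNAi to control heads, GGKF01051112.1 was just inside at 1.21 and GGKF01064397.1 just outside at 1.32.

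GGKF01051112.1 was also the transcript with the lowest ratio of RNAi to control body columns, 0.257. It was at 9.4, 10.6 and 10.6 CPM in control body columns and at 2.79, 5.24, 2.44 and 0 CPM in RNAi body columns, which did not overlap. Control heads had 0, 2.14, 0 and 2.77 CPM and RNAi heads 0, 0, 5.96 and 0 CPM, so its ratio in heads rests on 1 RNAi library. The change in body columns, −1.87 on the log2 scale (SE 1.67), did not pass the threshold (edgeR adjusted p = 0.661).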

How the data were processed

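The deposited table held expected counts per contig for 15 libraries, 1 column each, named by title; 0 columns were left unused. Per the submitters' processing notes Salmon and DESeq2 1.26.0 were used, with no role stated; the transcriptome index and settings are not given in the sources used here. Such programs divide reads between similar contigs. In the deposited data, 74.2% of the nonzero expected counts were not whole, and they were rounded, which changed a total by at most 145. CPM used library totals. The 31142 transcripts that passed filterByExpr held 99.7% to 99.8% of each library. RNAi and control body columns were compared with edgeR 4.0.16 in R 4.3.3 (quasi-likelihood test, TMM, 1 mean per group in 1 model of 15 libraries, Benjamini-Hochberg adjustment, threshold 0.05); DESeq2 1.42.0 was an alternative. Titles give the groups shared replicate numbers. Over all tested transcripts, deviations from group means correlated between −0.0357 and 0.0404 in the 21 pairs of libraries with the same number. These pairs lay within and between tissues, and for this reason the main model had no block. Correlations over all tested transcripts cannot show whether some of them had a replicate effect. A replicate effect on the abundant transcripts alone was not tested. The sum of the transcripts with at least 100 CPM was 5122, 4209 and 3676 CPM in control body columns 2, 3 and 4. It was 4285, 4393, 4555 and 3637 CPM in RNAi body columns 1 to 4, so replicate 4 was lowest in both. In heads the lowest sums were in control replicate 4 and RNAi replicate 2. Named transcripts followed a rule: the 4 most abundant, the 2 with the highest tissue ratio and a head count, the 2 most abundant at 0 in all heads, the 2 with the lowest RNAi head ratio at 1 CPM or more, the 2 largest called rises and falls in body columns (there were none), and those next to each limit. Others are said to be chosen later. The members and lists were chosen with earlier results of these data known.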

Additional observations from a re-analysis of the deposited data

Results flagged for a closer look

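In 44 sets of 4 libraries examined (12 named transcripts and 4 summed levels), 3 held a library far from the other 3; chance gives such a library in 1 of 20 sets. GGKF01045106.1 was low in RNAi body column replicate 4, at 1302 CPM against 1597 to 1657 CPM in the others. GGKF01064612.1 was high in RNAi head replicate 2, at 0.0995 CPM against 0.0487 to 0.0520 CPM, all below the level of 3 counts. GGKF01051112.1 was high in RNAi head replicate 3, at 5.96 CPM, and listed at 0 in the other 3 RNAi heads. RNAi head replicate 2 was not flagged as low in any of these sets.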

How the results depend on the processing

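None of the 41 transcripts was called in body columns under any of the 13 alternatives run, the replicate block among them. The number of all transcripts called, 640, was 1837 with DESeq2, 100 with body columns alone, 143 with library totals as scaling, 274 without the filter, 111 with a change of at least 1 on the log2 scale, 101 with the replicate number as a block, and 103 to 545 when 1 body column was left out; it was lowest of these without control body column replicate 3. The number of members, 41, was 22 with at least 10 CPM, 173 with a ratio of 4 and 16 with a ratio of 16. Those at least 8 times control heads in RNAi body columns, 33, were 19 and 16 under the first and last of these. The median log2 ratio of RNAi to control body columns, −0.21 with library totals, was −0.15 with TMM factors, −0.32 with at least 2 CPM, −0.098 with at least 10 CPM, −0.43 with a ratio of 16, −0.32 to −0.14 with 1 library left out of the choice or the ratio, and −0.16 and −0.25 with the members kept and control body column replicate 2 or 3 left out, an alternative chosen after seeing the data. Uncalled values near 0 changed sign: GGKF01045106.1 gave −0.025 with the block and −0.040 to 0.27 with 1 library left out, GGKF01069498.1 −0.14 to 0.19 with 1 left out, and GGKF01072543.1 −0.0020 with DESeq2, −0.019 with body columns alone, −0.052 with library totals, −0.13 with the block and −0.11 to 0.12 with 1 left out. The cause of these moves was not tested.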
